A study of Mus musculus with 12 samples.

Results

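The genes of cholesterol synthesis and of its control by SREBP2 were followed in inguinal white adipose tissue (iWAT) of WT and HIF2α AKO mice at thermoneutrality (TN) and upon cold. The set held 28 genes of the 23420 in the count table and was chosen by function, with no expression value in the rule. Earlier results of these data were, however, known when it was chosen. The set comprised 19 enzymes, of which 8 form or branch from the mevalonate arm, 3 lead from farnesyl diphosphate to lanosterol and 8 convert lanosterol to cholesterol. In addition, there were 4 genes that control SREBP2 and 5 genes that move or esterify sterols.

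Cells build cholesterol from acetyl-CoA, first through mevalonate and isoprenoid units, then through squalene and lanosterol. SREBP2 is a transcription factor held in the membrane of the endoplasmic reticulum. When sterols are low, SCAP escorts it to the Golgi, where proteases release the part that enters the nucleus and activates genes of sterol synthesis, whereas INSIG proteins retain it when sterols are plentiful. In excess, oxysterols activate LXR, which raises the export pumps ABCA1 and ABCG1, and SOAT1 stores cholesterol as esters. In adipocytes, much of the free cholesterol lies around the lipid droplet, and these cells obtain sterol both from lipoproteins and from their own synthesis.

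Tissue RNA was sequenced from 12 male C57BL/6 mice aged 10 weeks, with 3 mice in each of 4 groups. All mice carried HIF2a alleles flanked by loxP sites, and only the HIF2α AKO mice also had Adipoq-Cre, whose promoter is active in all adipocytes, so the effects of Cre itself and of the deletion cannot be told apart. Mice of either genotype were housed for 1 week at 30 °C (TN), or for 3 days in the cold at 4 to 6 °C. The samples were whole tissue and hold adipocytes together with stromal, immune and vascular cells.

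Between 22368316 and 35204631 counts per library fell on genes. Levels of single mice are counts scaled to a common library size with TMM factors (CPM), and differences come from edgeR's quasi-likelihood test with all 4 groups in a single fit and Benjamini-Hochberg adjustment over the 15306 genes that passed a filter on low counts. The 28 genes all passed this filter, as did 37 further genes of sterol and isoprenoid metabolism. Differences are given as log2 fold change ± SE, and a gene is said to have risen or fallen if its adjusted p was under 0.05. Epas1, which encodes HIF2α, was not detectably lower in HIF2α AKO libraries, with a log2 difference from WT of -0.05 ± 0.20 at TN and 0.40 ± 0.20 in cold. Its counts cover the whole gene and not the floxed part alone, so the genotype is used here as labelled. Adipocyte markers were present in every library, with summed levels between 7219 and 48030 CPM. Skeletal muscle markers reached 1552 CPM in TN HIF2α AKO replicate 2 and 1289 CPM in cold HIF2α AKO replicate 1, against at most 93.0 CPM in the others. Likewise, epithelial markers summed to 218 CPM in TN WT replicate 3 and to at most 11.4 CPM elsewhere.

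Upon cold, the synthesis pathway rose nearly throughout. Over both genotypes, 15 of 19 enzymes were higher in cold than at TN and none was lower, with a median log2 fold change of 0.94 against -0.05 for all genes tested. The increases were led by Hmgcs1, which forms HMG-CoA, at 3.30-fold, Sc5d, a late sterol desaturase, at 2.79-fold, and Hsd17b7, a sterol ketoreductase, at 2.77-fold. Insig1, a brake on SREBP2 that is itself an SREBP target, rose 3.28-fold, whereas Srebf2 fell slightly, and the esterifying enzyme Soat1 and the exporter Abcg1 also declined. Of the 28 genes, 17 rose and 3 fell, which together make 20, while 48.8% of all genes were called in this comparison, 24.8% higher and 24% lower. In whole tissue, fewer cells of a type and less RNA per cell cannot be told apart, and adipocyte markers rose in the same mice, 6 of 8 with a median of 1.02.

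Scaling affected the balance of all genes. With TMM, 50.9% of all calls were higher in cold, whereas with library size alone the share was 21.5% and the median of all genes moved from -0.05 to -0.33. Under that scaling 14 of the 28 genes rose and 5 fell, and 13 enzymes were called higher, with a median of 0.65. Of all 15306 genes, 2102 were called higher and 7653 lower under it. The calls of Mvk, Lss and Insig2 were lost, and Ggps1 and Abca1 were called lower. Among genes that passed under both scalings, Ebp went from 0.54 to 0.25 (adjusted p = 0.0138), Tm7sf2 from 0.83 to 0.53, Srebf2 from -0.30 to -0.58 and Abcg1 from -0.54 to -0.81.

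**Figure D1:**
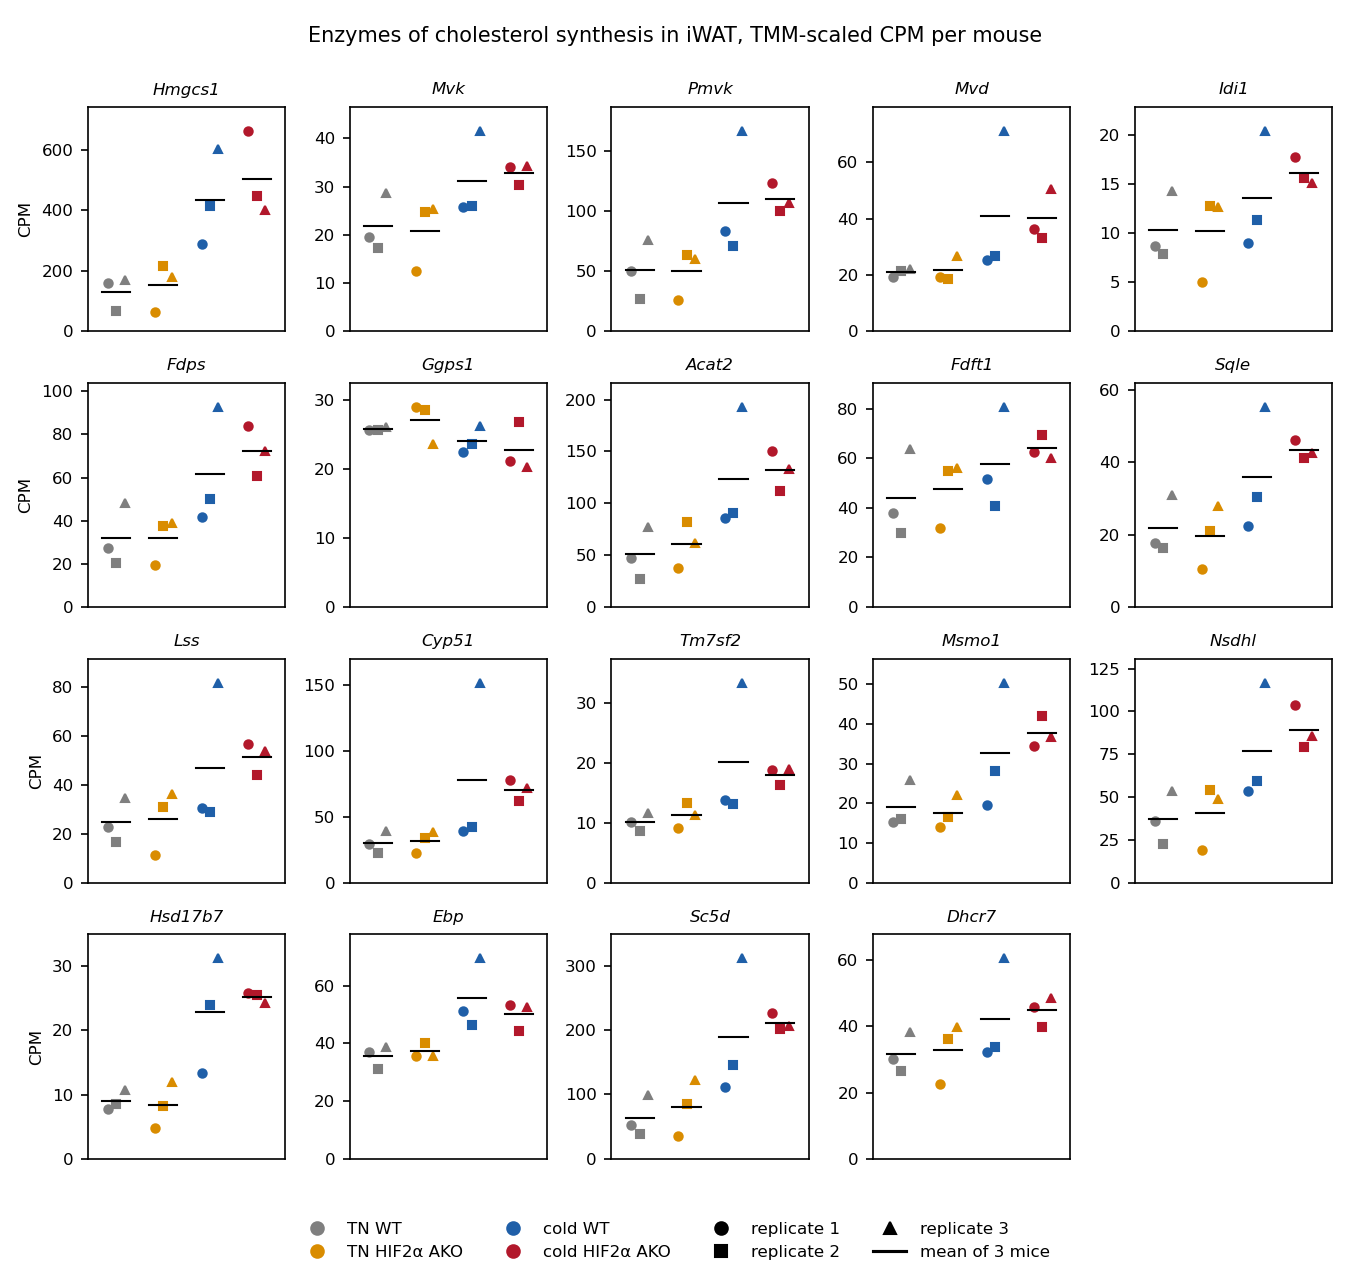
TMM-scaled CPM of the 19 synthesis enzymes in each of 12 mice, on linear axes from 0, where color marks the group, shape the replicate number and the line the mean of 3 mice. In Hmgcs1, Acat2, Hsd17b7 and Ebp, all 6 cold mice lie above all 6 TN mice, and the blue triangle, cold WT replicate 3, is the highest cold WT mouse in every panel.

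The promoters of these genes were read to describe what stands in front of the members, whether or not they moved. SREBP binds sterol regulatory elements, usually beside a CCAAT box bound by NF-Y. Windows of 300 bases, from 250 before to 50 after the transcription start, were available for 22 of the 28 genes in RefSeq (GRCm38.p6), and the letters TCACNCCA, a core of the sterol regulatory element, and CCAAT were searched on both strands. TCACNCCA was present in 3 of 22 (Hmgcs1, Msmo1 and Srebf2) and in 4.97% of 27025 mouse genes. A longer form, TCACNCCAC, was searched first and occurred in Hmgcs1 alone, against 1.44% of genes. CCAAT was found in 19 of 22 genes and in 15 of 16 enzymes, all but Acat2, against 41.1% of mouse genes. It was present also in Idi1, Ggps1 and Dhcr7, which were not called upon cold, and in Soat1 and Srebf2, which fell. Acat2, which rose, and Scap and Abca1, which were not called, had none. A match is a description of letters and not a binding site or a cause, and no match says only that these letters are absent from this window. In the windows below, printed 5′ to 3′ on the strand of the gene, capitals mark both motifs, and a CCAAT box on the opposite strand reads ATTGG. Hmgcs1 and Msmo1 are shown as enzymes that hold both motifs, Hsd17b7 as the enzyme with the smallest adjusted p, which has CCAAT boxes and no TCACNCCA, Insig1 as the member with the largest rise among the SREBP2 control genes, and Srebf2 as a member that fell.
Hmgcs1, chr13:119690101-119690400, + strand: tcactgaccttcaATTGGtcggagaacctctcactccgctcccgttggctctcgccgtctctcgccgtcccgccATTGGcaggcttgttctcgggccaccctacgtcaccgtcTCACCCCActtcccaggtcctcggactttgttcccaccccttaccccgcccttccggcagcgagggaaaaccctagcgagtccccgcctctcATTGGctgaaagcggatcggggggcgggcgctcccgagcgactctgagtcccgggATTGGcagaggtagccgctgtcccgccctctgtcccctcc
Msmo1, chr8:64733529-64733828, - strand: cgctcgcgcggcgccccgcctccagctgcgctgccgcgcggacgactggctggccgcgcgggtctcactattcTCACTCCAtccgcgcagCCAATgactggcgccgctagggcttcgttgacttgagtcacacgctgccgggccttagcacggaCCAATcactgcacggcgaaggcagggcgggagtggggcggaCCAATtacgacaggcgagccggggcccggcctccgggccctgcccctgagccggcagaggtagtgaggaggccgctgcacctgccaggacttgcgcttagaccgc
Hsd17b7, chr1:169969156-169969455, - strand: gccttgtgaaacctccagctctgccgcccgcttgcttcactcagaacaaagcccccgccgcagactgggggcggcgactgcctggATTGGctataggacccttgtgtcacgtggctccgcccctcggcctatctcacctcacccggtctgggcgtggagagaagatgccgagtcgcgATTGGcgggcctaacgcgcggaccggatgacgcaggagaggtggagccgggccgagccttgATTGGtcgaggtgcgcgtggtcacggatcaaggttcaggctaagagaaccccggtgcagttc
Insig1, chr5:28071162-28071461, + strand: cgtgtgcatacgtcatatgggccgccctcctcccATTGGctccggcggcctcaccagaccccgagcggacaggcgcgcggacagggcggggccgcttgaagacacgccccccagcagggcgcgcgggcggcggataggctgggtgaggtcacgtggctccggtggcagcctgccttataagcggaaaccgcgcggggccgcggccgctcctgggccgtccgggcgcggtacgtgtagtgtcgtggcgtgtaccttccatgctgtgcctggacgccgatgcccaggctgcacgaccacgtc
Srebf2, chr15:82147019-82147318, + strand: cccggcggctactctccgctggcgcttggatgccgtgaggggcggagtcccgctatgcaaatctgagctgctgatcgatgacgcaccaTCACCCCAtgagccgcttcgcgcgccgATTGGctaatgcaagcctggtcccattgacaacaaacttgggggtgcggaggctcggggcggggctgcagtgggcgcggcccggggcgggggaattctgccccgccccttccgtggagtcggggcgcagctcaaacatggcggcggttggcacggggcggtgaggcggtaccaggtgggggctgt
In Hmgcs1, the TCACNCCA match starts at position -137 from the transcription start, between CCAAT boxes on the opposite strand. In Msmo1 the match starts at position -177, with 3 CCAAT boxes between it and the start. Srebf2 has the match at position -162 and 1 CCAAT box, on the opposite strand. The 2 motifs did not overlap in any of these windows.

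In the mevalonate arm, 6 of 8 enzymes rose, and the median over the 8 was 0.99. Hmgcs1, the cytosolic HMG-CoA synthase, stood at 160.5, 65.8 and 168 CPM in TN WT mice, 63.8, 216 and 179 in TN HIF2α AKO mice, 288, 414 and 602 in cold WT mice and 663, 448 and 401 in cold HIF2α AKO mice. Each cold mouse was above each TN mouse, and the rise was 1.72 ± 0.34 (adjusted p = 0.00228). Acat2, the cytosolic thiolase that makes acetoacetyl-CoA, had 47.8, 27.5 and 77.4 CPM in TN WT mice, 37.98, 81.6 and 61.6 in TN HIF2α AKO mice, 86.3, 90.7 and 193 in cold WT mice and 151, 112 and 133 in cold HIF2α AKO mice. Here, too, the cold and TN mice did not overlap, and the rise was 1.20 ± 0.29 (adjusted p = 0.00703), although Acat2 has a near-identical copy, Acat3, whose reads may have been split. Groups that do not overlap in 6 cold against 6 TN mice were found in 4 of 19 enzymes, all of them higher in cold, and in 16% of all genes in that direction.

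Fdps, the farnesyl diphosphate synthase at the branch point to sterols, prenyl groups and dolichol, measured 27.4, 20.3 and 48.4 CPM in TN WT mice, 19.6, 37.5 and 39.1 in TN HIF2α AKO mice, 41.9, 49.9 and 92.7 in cold WT mice and 83.9, 60.9 and 72.3 in cold HIF2α AKO mice. TN WT replicate 3 lay above cold WT replicate 1, so the cold and TN mice overlapped, and the difference was 1.06 ± 0.27 (adjusted p = 0.00854). Mvd, which decarboxylates mevalonate diphosphate, had 19.3, 21.5 and 22.1 CPM in TN WT mice, 19.3, 18.6 and 26.9 in TN HIF2α AKO mice, 25.3, 26.8 and 71.2 in cold WT mice and 36.5, 33.2 and 50.6 in cold HIF2α AKO mice. Its cold mice were above the TN mice of the same genotype, with cold WT replicate 3 well above the other 2, and it rose by 0.93 ± 0.25 (adjusted p = 0.0107), or by 0.60 without that mouse.

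The kinases of this arm rose as well. Pmvk, phosphomevalonate kinase, gained 1.11 ± 0.30 (adjusted p = 0.0126) and Mvk, mevalonate kinase, 0.58 ± 0.20 (adjusted p = 0.0329). The call for Mvk was lost in 6 of 12 fits that each left out 1 library, for example at 0.45 (adjusted p = 0.0842) without cold WT replicate 3 and 0.57 (adjusted p = 0.0637) without cold HIF2α AKO replicate 1. It was also lost without cold HIF2α AKO replicate 3, TN HIF2α AKO replicate 1, TN WT replicate 1 or TN WT replicate 2, at adjusted p between 0.0513 and 0.0760. Idi1, the isopentenyl diphosphate isomerase, was at 0.53 ± 0.27 (adjusted p = 0.121), did not pass, and was at 0.32 without cold WT replicate 3. Ggps1, which makes geranylgeranyl diphosphate for protein prenylation rather than for sterols, was the single enzyme with a negative value, -0.17 ± 0.09 (adjusted p = 0.115), and was called lower without cold HIF2α AKO replicate 2, at -0.24 (adjusted p = 0.0300). Some exon bases of Ggps1 are shared with Arid4b, and the strand setting of the counting is not given in the sources used here.

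Of the 3 enzymes from farnesyl diphosphate to lanosterol, 2 rose. Sqle, squalene epoxidase, gained 0.93 ± 0.27 (adjusted p = 0.0171). Lss, lanosterol synthase, gained 0.95 ± 0.33 (adjusted p = 0.0357), and its call was lost in 6 of 12 fits that left out 1 library, with adjusted p between 0.0593 and 0.0994 without cold WT replicate 3, TN WT replicate 1, TN WT replicate 2, TN HIF2α AKO replicate 1, cold HIF2α AKO replicate 1 or cold HIF2α AKO replicate 3. Leaving out cold WT replicate 3 brought Lss from 0.95 to 0.62, and without the 3 libraries with muscle or epithelial markers it was at 1.14 (adjusted p = 0.0535). Fdft1, squalene synthase, was at 0.41 ± 0.22 (adjusted p = 0.146), did not pass and was called higher without TN WT replicate 3, the library with epithelial markers, at 0.60 (adjusted p = 0.0295), whereas without cold WT replicate 3 it was at 0.25 (adjusted p = 0.357). Lss and Fdft1 share exon bases with 4930483K19Rik and Ctsb, respectively.

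From lanosterol to cholesterol, 7 of 8 enzymes rose, with a median of 1.01. Hsd17b7 acts with Msmo1 and Nsdhl in removing methyl groups from the sterol ring, and had 7.79, 8.46 and 10.7 CPM in TN WT mice, 4.83, 8.23 and 11.98 in TN HIF2α AKO mice, 13.4, 23.97 and 31.2 in cold WT mice and 25.8, 25.4 and 24.2 in cold HIF2α AKO mice. All cold mice exceeded all TN mice, and this rise of 1.47 ± 0.23 had the smallest adjusted p of the 28 genes, 0.000697. Sc5d, the desaturase close to the end of the pathway, had 53.2, 37.9 and 99.1 CPM in TN WT mice, 35.5, 85.3 and 122 in TN HIF2α AKO mice, 111, 146 and 311 in cold WT mice and 226, 201 and 206 in cold HIF2α AKO mice. It overlapped through TN HIF2α AKO replicate 3, which exceeded cold WT replicate 1, and rose by 1.48 ± 0.35 (adjusted p = 0.00606).

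Cyp51, the cytochrome P450 that demethylates lanosterol, measured 29.1, 22.4 and 39.4 CPM in TN WT mice, 22.4, 33.7 and 38.5 in TN HIF2α AKO mice, 38.9, 42.04 and 151 in cold WT mice and 77.5, 61.96 and 71.5 in cold HIF2α AKO mice. One mouse, cold WT replicate 3, was far above the other cold WT mice, of which the lowest fell below TN WT replicate 3. Cyp51 rose by 1.26 ± 0.32 on the log2 scale (adjusted p = 0.00944), and by 0.79 (adjusted p = 0.0307) without cold WT replicate 3. Tm7sf2, a sterol reductase, had 10.3, 8.64 and 11.7 CPM in TN WT mice, 9.23, 13.3 and 11.4 in TN HIF2α AKO mice, 13.8, 13.2 and 33.5 in cold WT mice and 18.9, 16.4 and 19.03 in cold HIF2α AKO mice, and this gene rose by 0.83 ± 0.22 (adjusted p = 0.011). In each genotype, its cold mice were above the TN mice. Without cold WT replicate 3, Tm7sf2 rose by 0.54 on the log2 scale. Cyp51 shares some exon bases with Akap9, and Tm7sf2 with Vps51.

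Msmo1, the methylsterol monooxygenase, had 15.3, 16.1 and 25.9 CPM in TN WT mice, 14.1, 16.6 and 22.2 in TN HIF2α AKO mice, 19.6, 28.2 and 50.4 in cold WT mice and 34.4, 41.9 and 36.8 in cold HIF2α AKO mice. TN WT replicate 3 and cold WT replicate 1 overlapped, whereas the HIF2α AKO groups did not, and the rise was 0.94 ± 0.23 (adjusted p = 0.00677). Ebp, the sterol isomerase, had 36.98, 31.01 and 38.8 CPM in TN WT mice, 35.8, 40.2 and 35.6 in TN HIF2α AKO mice, 51.2, 46.2 and 69.4 in cold WT mice and 53.3, 44.4 and 52.8 in cold HIF2α AKO mice. These levels did not overlap between cold and TN, and the rise was 0.54 ± 0.11 (adjusted p = 0.00239), or 0.25 under scaling by library size alone. Nsdhl gained 1.09 ± 0.30 (adjusted p = 0.0124). Dhcr7, which reduces the last intermediate of 1 route to cholesterol, was at 0.43 ± 0.19 (adjusted p = 0.0749) and passed in 2 of 12 fits that left out a library, at adjusted p of 0.0481 without cold WT replicate 1 and 0.0494 without TN WT replicate 3. Without cold WT replicate 3, Dhcr7 was at 0.25 (adjusted p = 0.193), and with a replicate block it passed, at 0.43 (adjusted p = 0.0302).

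Per kilobase of exon, the levels of these genes spanned a wide range in cold. Insig1 and Hmgcs1 had the highest mean RPKM in cold WT mice, 156 (82.4 to 291) and 125 (82.8 to 173), and their ranges overlapped. Pmvk was next, at a mean of 62.6 RPKM. At the low end were Stard4, Soat1, Idi1 and Hsd17b7, with means between 2.40 and 4.53 RPKM, so the enzyme with the smallest adjusted p was among the lowest in level.

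**Figure D2:**
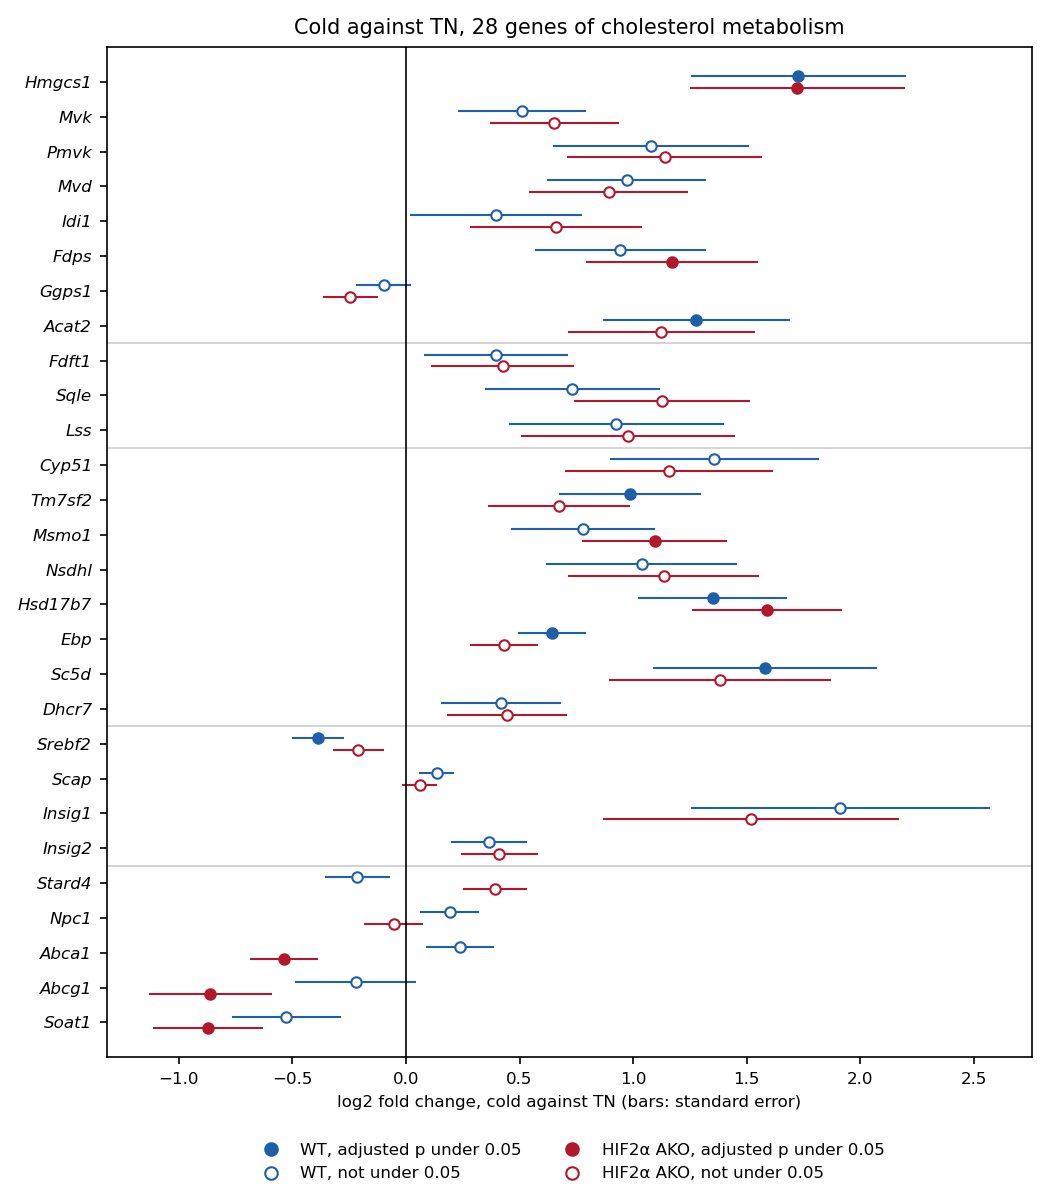
Log2 fold change of 28 genes in cold against TN, in WT (blue) and HIF2α AKO mice (red), with bars of 1 standard error and filled points where the adjusted p was under 0.05. Enzymes, above the third gray line, lie to the right of 0 in both genotypes except Ggps1, and in the last block Abca1, Npc1 and Stard4 lie on opposite sides of 0 in WT and HIF2α AKO mice.

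The SREBP2 control genes moved in different directions. Srebf2, the gene of SREBP2 itself, had 154, 188 and 160.3 CPM in TN WT mice, 157, 141 and 169 in TN HIF2α AKO mice, 121, 142 and 121 in cold WT mice and 123, 139 and 142 in cold HIF2α AKO mice. Most cold mice were below most TN mice, with overlap through TN HIF2α AKO replicate 2, and Srebf2 fell by 0.30 ± 0.08 on the log2 scale (adjusted p = 0.0117). Insig1 measured 114, 49.3 and 173 CPM in TN WT mice, 59.3, 121 and 302 in TN HIF2α AKO mice, 222, 258 and 784 in cold WT mice and 599, 400.2 and 383 in cold HIF2α AKO mice. It varied several fold between mice of a group and overlapped through TN HIF2α AKO replicate 3, and its rise was 1.72 ± 0.46 (adjusted p = 0.0116). Insig2, the second INSIG, whose gene is not a classic SREBP target, had 42.8, 38.1 and 52.98 CPM in TN WT mice, 36.3, 48.3 and 47.6 in TN HIF2α AKO mice, 56.9, 45.97 and 69.5 in cold WT mice and 61.9, 58.3 and 55.5 in cold HIF2α AKO mice. It rose modestly, by 0.39 ± 0.12 (adjusted p = 0.0204), and lost its call without TN WT replicate 2, at 0.33 (adjusted p = 0.0509). Scap, the escort protein, was even across all 12 mice, between 95.5 and 113 CPM, and was at 0.10 ± 0.06 (adjusted p = 0.159), with its sign turned under scaling by library size alone.

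Among the sterol transport and esterification genes, 2 of 5 fell and none rose. Soat1, which esterifies cholesterol, had 43.8, 49.3 and 32 CPM in TN WT mice, 56.4, 39.3 and 39.9 in TN HIF2α AKO mice, 31.2, 36.1 and 19.6 in cold WT mice and 20, 27.3 and 26.7 in cold HIF2α AKO mice. The cold mice were mostly lower, with 1 cold WT mouse, replicate 2, in the TN WT range, and Soat1 fell by 0.70 ± 0.17 on the log2 scale (adjusted p = 0.00732). Abcg1, an LXR-driven exporter of cholesterol, measured 165, 132 and 110.2 CPM in TN WT mice, 156, 123 and 169 in TN HIF2α AKO mice, 154, 127 and 68.4 in cold WT mice and 67.7, 79.5 and 99.3 in cold HIF2α AKO mice. Cold HIF2α AKO mice were lower than every TN mouse, while cold WT mice covered nearly the whole range, and Abcg1 fell by 0.54 ± 0.19 (adjusted p = 0.036). Its call was lost in 6 of 12 fits that left out 1 library, at adjusted p between 0.0546 and 0.0873 without cold HIF2α AKO replicates 1 or 2, TN HIF2α AKO replicates 1 or 3, or TN WT replicates 1 or 2, and also with a replicate block (adjusted p = 0.0536). Abca1, the other exporter, was at -0.15 ± 0.11 (adjusted p = 0.261), Npc1, which lets cholesterol leave lysosomes, at 0.07 ± 0.09 (adjusted p = 0.543), and Stard4, a cytosolic sterol carrier, at 0.09 ± 0.10 (adjusted p = 0.482). Under scaling by library size alone Npc1 and Stard4 turned negative, and Npc1 did so without the 3 libraries with muscle or epithelial markers. Macrophages, which express these genes, had 12 markers of which 3 fell, with a median of -0.45, while 24% of all genes were called lower. The part of macrophages in the Soat1 and Abcg1 values was not tested.

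**Figure D3:**
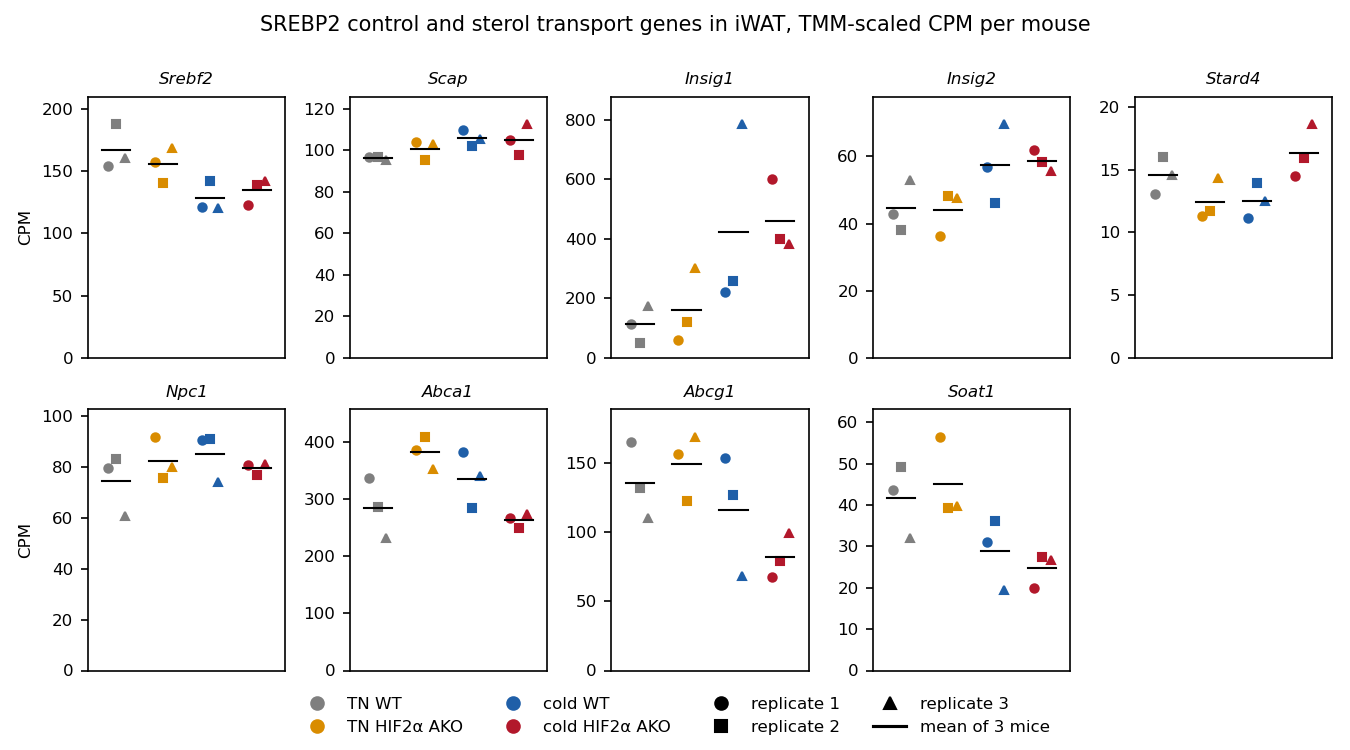
TMM-scaled CPM of 4 SREBP2 control genes and 5 sterol transport or esterification genes in each of 12 mice, on linear axes from 0, with color for the group, shape for the replicate number and a line at the mean of 3 mice. Insig1 is higher and widely spread in cold, Scap is level between 95.5 and 113 CPM, and Abca1 is higher in HIF2α AKO than WT mice at TN and lower in cold.

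Within each genotype, fewer genes passed the test. In WT mice, 6 rose (Hmgcs1, Acat2, Tm7sf2, Hsd17b7, Ebp and Sc5d) and Srebf2 fell, 7 of 28 in all, while 21.3% of all genes were called, 15.6% higher and 5.68% lower. This count depended on single mice and was 1 without cold WT replicate 3, 1 without TN WT replicate 1 and 0 without TN WT replicate 2. In HIF2α AKO mice, 4 rose (Hmgcs1, Fdps, Msmo1 and Hsd17b7) and 3 fell (Abca1, Abcg1 and Soat1), again 7 of 28, with 27% of all genes called, 15.6% higher and 11.5% lower. Leaving out cold HIF2α AKO replicate 1 or TN HIF2α AKO replicate 1 reduced it to 1, leaving out cold HIF2α AKO replicate 2 to 4, and leaving out together the 3 libraries with muscle or epithelial markers to 0. In that last fit, 1466 of all genes were called higher and 368 lower. In HIF2α AKO mice, Abca1 fell by 0.54 ± 0.15 (adjusted p = 0.0254), Abcg1 by 0.86 ± 0.27 (adjusted p = 0.0382) and Soat1 by 0.87 ± 0.24 (adjusted p = 0.0242), and in WT mice their values were 0.24 ± 0.15, -0.22 ± 0.27 and -0.53 ± 0.24. These calls in HIF2α AKO mice were lost in 4 of 6 fits that left out 1 library for Abca1 (without cold replicates 1 or 2, or TN replicates 1 or 2), in 4 of 6 for Abcg1 (cold replicates 1 or 2, TN replicates 1 or 3) and in 2 of 6 for Soat1 (cold or TN replicate 1), at adjusted p between 0.0594 and 0.142. Abcg1 also lost its call with a replicate block (adjusted p = 0.0607), and in WT mice it was at 0.05 without cold WT replicate 3. Macrophage markers moved in the same comparison, with 12 of 12 negative, 3 called lower and a median of -0.72 in HIF2α AKO mice, against 9 of 12 negative, 0 called and a median of -0.13 in WT mice, and their part was not tested. The 3 cold and 3 TN mice did not overlap, with cold higher, in 8 of 19 enzymes in WT mice and in 18 of 19 in HIF2α AKO mice, against 22.7% and 24.9% of all genes. The medians of the 19 enzymes were 0.94 in WT and 1.09 in HIF2α AKO mice. These counts do not show a difference between genotypes, and the interaction that tests it called 0 of 28 genes, and 0% of all genes, with edgeR's quasi-likelihood test, and 0 of 28 with DESeq2 and limma voom.

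**Figure D4:**
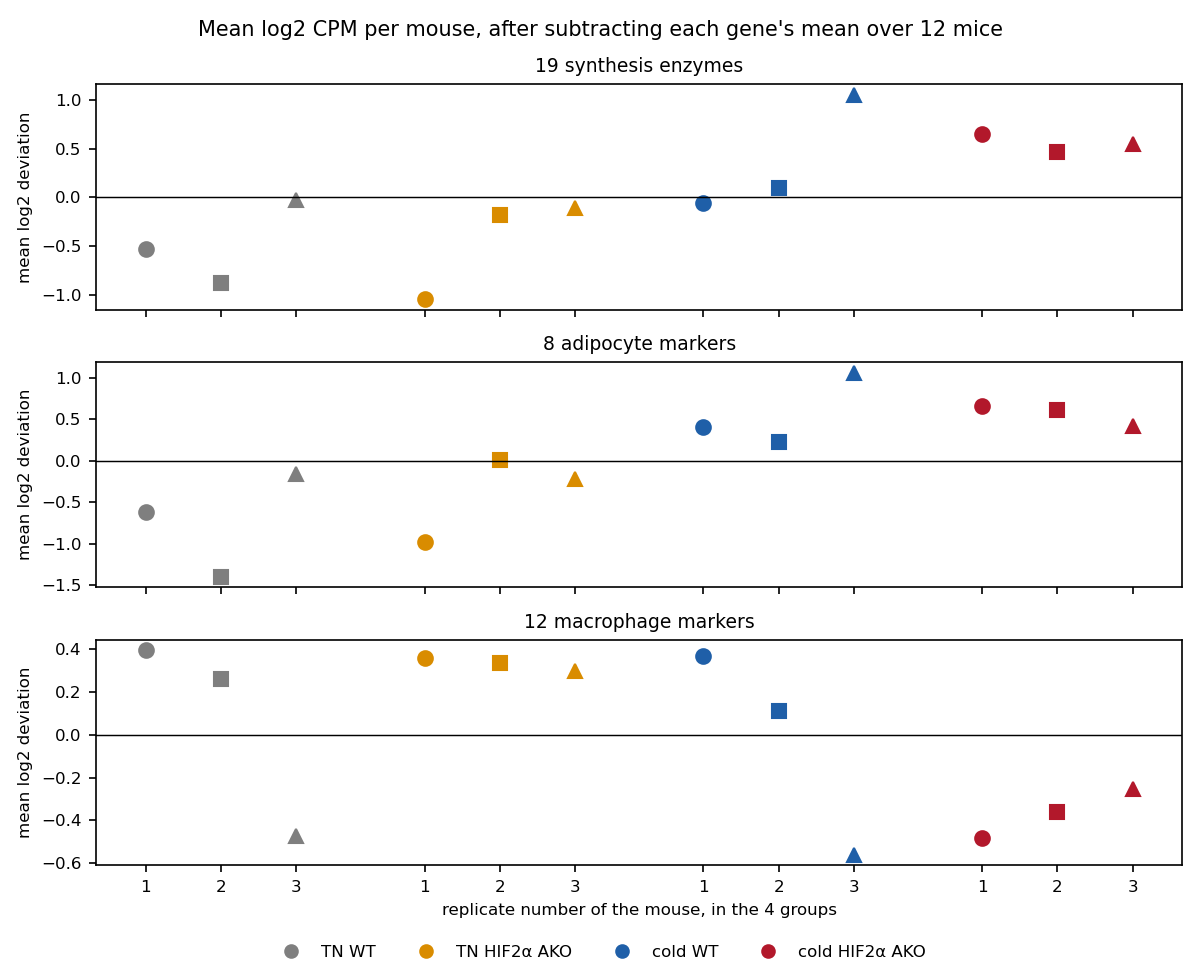
Mean log2 CPM per mouse of 19 synthesis enzymes, 8 adipocyte markers and 12 macrophage markers, after subtracting the mean of each gene over 12 mice, with the 4 groups in color and replicate numbers on the horizontal axis. Cold WT replicate 3 is highest for enzymes (1.05) and adipocyte markers (1.06) and lowest for macrophage markers (-0.56), and in every group except TN HIF2α AKO the highest mouse for enzymes is also the highest for adipocyte markers.

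The enzymes varied together from mouse to mouse within a group. All 19 were highest in replicate 3 among cold WT mice and in replicate 3 among TN WT mice. In contrast, 16 of 19 were lowest in TN WT replicate 2, 16 in TN HIF2α AKO replicate 1 and 14 in cold WT replicate 1. Summed over the enzymes, levels were 657, 448.5 and 908 CPM in TN WT mice, 431, 878 and 879 in TN HIF2α AKO mice, 1022, 1207 and 2256 in cold WT mice and 1881, 1493 and 1535 in cold HIF2α AKO mice. Every cold mouse had a higher sum than every TN mouse, and cold WT mice were the most spread.

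Adipocyte markers moved with them. None of the 8 such markers fell, and their summed levels ranged from 7219 to 17170 CPM in TN WT, 10930 to 18480 in TN HIF2α AKO, 24830 to 48030 in cold WT and 28950 to 36530 in cold HIF2α AKO mice. The sums of 12 macrophage markers, of which none rose, were 2084 to 3664, 3278 to 3706, 1729 to 3370 and 1890 to 2327 CPM in the same order. Lymphocyte markers fell in 8 of 8 cases. No marker of the adipocyte, macrophage or lymphocyte list was at 0 in all mice of a group. The part of these shifts in the enzyme levels was not tested.

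The loss of HIF2α, as labelled, was not accompanied by a detected change in the set. At TN 0 of 28 genes and in cold 0 of 28 genes differed between HIF2α AKO and WT mice, where 0.00653% of all genes, a single gene, was called in each comparison. At an unadjusted p under 0.05, there was 1 gene at TN and there were 2 in cold, against 2.91% and 2.95% of all genes, and DESeq2 and limma voom also called 0 of 28 in both. The 19 enzymes had log2 differences between -0.13 and 0.35 at TN and between -0.16 and 0.26 in cold, with medians of 0.06 and 0.13. The intervals were wide, since for Hmgcs1 in cold the difference was 0.21 with a 95% interval of -0.80 to 1.23, and for Hsd17b7 0.14 with -0.57 to 0.84. Ebp, with a smaller spread, was at -0.15 with an interval of -0.48 to 0.18. The median over the 28 genes in cold moved from 0.08 to 0.46 without cold WT replicate 3, and the count of calls stayed at 0.

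Sterol transport genes held the smallest unadjusted p-values of the genotype comparisons among the 28 genes. None of them passed adjustment. Abca1 stood at 338, 286 and 231 CPM in TN WT mice, 386, 409 and 353 in TN HIF2α AKO mice, 383, 284 and 340.2 in cold WT mice and 268, 249 and 275 in cold HIF2α AKO mice. All HIF2α AKO mice were above the WT mice at TN and below them in cold, with differences of 0.43 ± 0.15 at TN and -0.35 ± 0.15 in cold, and the test of the change in that difference gave -0.77 ± 0.21 with an adjusted p of 1 by edgeR's quasi-likelihood test. Stard4 had 13.1, 15.97 and 14.5 CPM in TN WT mice, 11.3, 11.7 and 14.3 in TN HIF2α AKO mice, 11.1, 13.9 and 12.5 in cold WT mice and 14.5, 15.9 and 18.6 in cold HIF2α AKO mice. Its HIF2α AKO mice were above the WT mice in cold, by 0.38 ± 0.14, and overlapped with them at TN, at -0.22 ± 0.14, with an interaction of 0.61 ± 0.20 (adjusted p = 1). Groups that do not overlap were seen in 1 of 28 genes at TN and in 2 of 28 in cold, against 7.69% and 7.53% of all genes.

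Abcg1, whose values per mouse stand above, was at 0.14 ± 0.27 at TN and -0.50 ± 0.27 in cold, where 1 cold WT mouse, replicate 3, lay within the range of the HIF2α AKO mice. Leaving out 1 library moved it between 0.01 (without TN WT replicate 3) and 0.30 (without TN WT replicate 1) at TN, and in cold it was lowest when replicate 3 of the WT mice was dropped, at -0.77, and nearest 0 when replicate 1 was, at -0.25. Npc1 had 79.4, 82.97 and 60.6 CPM in TN WT mice, 91.5, 75.4 and 79.9 in TN HIF2α AKO mice, 90.3, 90.8 and 73.9 in cold WT mice and 80.5, 76.6 and 80.8 in cold HIF2α AKO mice. The genotypes overlapped at both temperatures, with 0.15 ± 0.13 at TN and -0.10 ± 0.13 in cold, or 0.02 without TN WT replicate 3 and -0.02 without cold WT replicate 2. Over the interaction, 2 of 28 genes had an unadjusted p under 0.05, against 2.14% of all genes, and none had an adjusted p under 1. Macrophages also use ABCA1 and ABCG1 for export, and of 12 macrophage markers 12 were negative in HIF2α AKO against WT mice in cold, with a median of -0.39 and 0 called, and 12 were positive at TN, with a median of 0.24 and 0 called. By summed macrophage markers, TN WT replicates 1 and 2, at 3657 and 3664 CPM, lay within the TN HIF2α AKO range of 3278 to 3706. Only TN WT replicate 3 lay below it, at 2084 CPM. In cold, WT replicates 1 and 2 lay above the HIF2α AKO range and replicate 3 below it. The part of macrophages in the Abca1 and Abcg1 values was not tested.

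**Figure D5:**
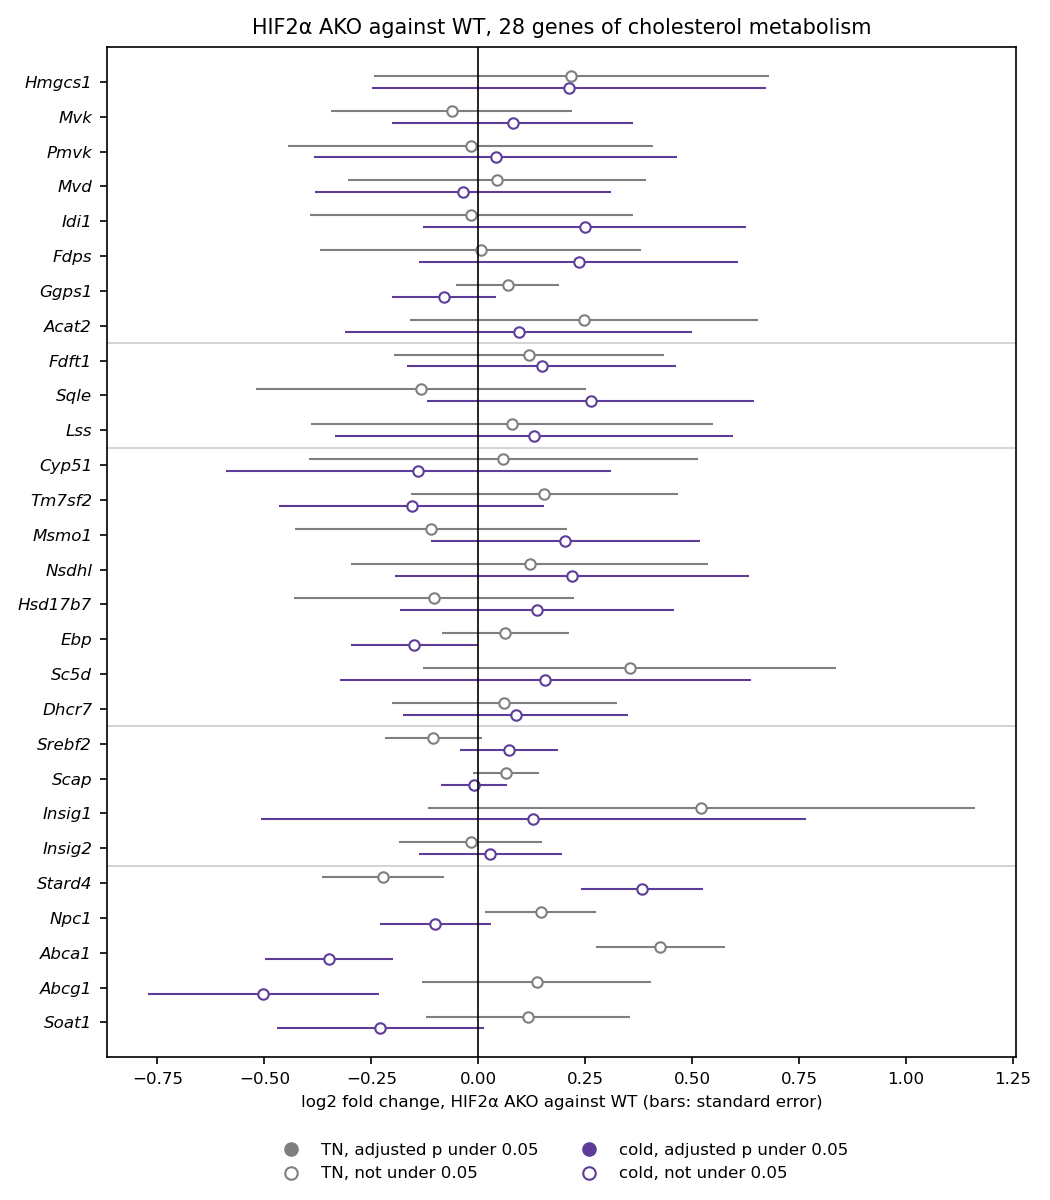
Log2 difference of 28 genes between HIF2α AKO and WT mice at TN (gray) and in cold (purple), with bars of 1 standard error and open points throughout, since no adjusted p was under 0.05. The enzymes cluster around 0 at both temperatures, and Abca1 and Stard4 lie on opposite sides of 0 at TN and in cold.

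Beyond these 28 genes, 37 further genes of sterol and isoprenoid metabolism were measured, in lists that hold SREBP cleavage and degradation, LXR and oxysterols, uptake and storage, electron donors and the isoprenoid branch. Over both genotypes, 16 rose upon cold and 5 fell, 21 of 37 against 48.8% of all genes, with a median of 0.13. Under scaling by library size alone 12 rose and 14 fell, against 2102 higher and 7653 lower of all 15306 genes. None of the 21 turned in sign under that scaling. Electron donors and other synthesis proteins moved most often, with 4 of 5 higher and 1 lower. They included Cyb5r3, the cytochrome b5 reductase, at 0.66 ± 0.10 (adjusted p = 0.000616), and Por, the reductase that supplies electrons to Cyp51, at 0.85 ± 0.16 (adjusted p = 0.00164). Lbr, a second sterol reductase of the same step as Tm7sf2, fell by 0.62 ± 0.14 (adjusted p = 0.00455).

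In the list of uptake and storage, 5 of 11 rose and 1 fell. Of all genes, 24.8% were called higher and 24% lower in this comparison. The counts of the single lists in this paragraph are to be read beside these shares. Vldlr, a receptor for triglyceride-rich lipoproteins, rose by 1.73 ± 0.17 (adjusted p = 4.31e-05), and Lipa, the lysosomal lipase that frees cholesterol from esters, rose by 0.65 ± 0.10 (adjusted p = 0.000803). Of 7 LXR and oxysterol genes, 2 rose and 2 fell, the latter being Mylip and Cyp27a1. Mean levels of Mylip in WT and HIF2α AKO mice were 116 and 131 CPM at TN and 109 and 87.2 CPM in cold. Nr1h3, which encodes LXRα, gained 0.92 ± 0.13 (adjusted p = 0.000328) and Lpcat3, an LXR target that remodels phospholipids, gained 1.31 ± 0.22 (adjusted p = 0.000879), in the same mice in which the LXR targets Abca1 and Abcg1 were not higher. In the isoprenoid branch, 3 of 7 rose, and Rabggtb, a subunit of the enzyme that prenylates Rab proteins, had the smallest adjusted p of the 37, at 0.60 ± 0.06 (adjusted p = 3.6e-05). Of the 7 genes of SREBP cleavage and sterol-sensing degradation, 2 rose and 1 fell, and this was Erlin1, part of the machinery for sterol-dependent degradation, which fell by 0.45 ± 0.06 (adjusted p = 0.000329). Srebf1, the gene of the related SREBP1, rose by 1.06 ± 0.23 (adjusted p = 0.00371), so both SREBP genes moved in opposite directions. Mylip, Gramd1a and Cyp27a1 completed the 5 that fell. Lbr, Srebf1, Mylip, Gramd1a and Cyp27a1 were named after their values were seen. Between genotypes, 0 of 37 differed at TN or in cold, against 0.00653% of all genes in each comparison. At an unadjusted p under 0.05 there were 0 at TN and 3 in cold, against 2.91% and 2.95% of all genes.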

How the data were processed

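Per the labels and the methods of the study, reads were trimmed with Trim Galore 0.4.4, aligned to GRCm38 with STAR 2.6.1d and counted per gene with HTSeq 0.13.5. The annotation and strand setting are not given in the sources used here. The authors deposited raw counts per gene, with no normalization, and these were used as deposited, without the 5 HTSeq tallies, which held 21.9 to 27.0% of reads. A gene without counts may still have up to 3 at these depths, by counting error only. Each library was taken as 1 mouse, since the labels number the samples and do not speak of pooling.

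Counts were analysed with R 4.3.3 and edgeR 4.0.16, with filterByExpr (minimum count 10, minimum total 15), TMM factors and 1 factor of 4 groups. P-values of the quasi-likelihood test were adjusted by Benjamini-Hochberg over 15306 genes, with a limit of 0.05. DESeq2 1.42.0, limma voom 3.58.1, other scalings and filters, a replicate block, the thresholds of the study, and each library left out in turn were alternatives, and the models were tested on simulated data. RPKM used the union of exons of protein-coding transcripts in a GRCm38 annotation. In the table, Msmo1 is named Sc4mol. The 28 genes, the further lists and the markers were chosen with earlier results of these data known. Values per mouse are given for up to 12 genes with the smallest adjusted p in a cold comparison, for the 3 genes with the smallest p in each genotype comparison, and for the SREBP2 control genes and exporters. Replicate numbers were not used to pair mice across groups. Of 18 same-numbered pairs, 5 had correlated deviations above 0.1. Deviations were centered within groups of 3 mice, so these correlations cannot exclude a batch shared by replicate number.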

Additional observations from a re-analysis of the deposited data

Results flagged for a closer look

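Abca1 differed between genotypes in opposite directions at the 2 temperatures, in every mouse. HIF2α AKO mice were lower than WT mice in cold, at -0.35 on the log2 scale, and higher at TN, at 0.43, with no overlap of the groups at either temperature. Such groups without overlap were found in 7.69% of all genes at TN and in 7.53% in cold. Of 12 macrophage markers, 12 were positive at TN and 12 negative in cold. At TN their sums were 3657, 3664 and 2084 CPM in WT mice and 3706, 3278 and 3422 in HIF2α AKO mice. TN WT replicate 3 alone lay below the HIF2α AKO range there. In cold the sums were 3370, 3005 and 1729 in WT mice and 1890, 2042 and 2327 in HIF2α AKO mice. The part of these markers was not tested. The difference between the temperatures was -0.77 ± 0.21, with an unadjusted p of 0.00385 and an adjusted p of 1 by edgeR's quasi-likelihood test, so it did not pass adjustment over all genes.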

How the results depend on the processing

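The counts over both genotypes varied less than those within a genotype. Over the alternatives, 16 to 23 of the 28 genes were called (20 in the report), 13 to 18 enzymes rose (15) and 18 to 26 of the 37 further genes were called (21). Calls over all genes moved as well, from 7467 in the report to 8155 with DESeq2 and 8363 with limma voom. With library size alone they were 2102 higher and 7653 lower, and without the 3 libraries with muscle or epithelial markers 3672 and 3032. For the 12 genes with the smallest adjusted p upon cold over both genotypes and the 3 with the smallest p in each genotype comparison and the interaction, 21 values in all, 369 of 369 alternative fits kept the direction and the side of the adjusted threshold. The cold values were picked for the smallest adjusted p, and the genotype values stayed at an adjusted p above 0.62. The selection thus left them little room to change side, and this count says nothing about the other genes. Upon cold over both genotypes, Mvk, Lss, Insig2 and Abcg1 lost their calls in some fits, as given in the report. Ggps1, Fdft1, Dhcr7 and Abca1 gained a call in some fits, and Scap, Npc1 and Stard4 changed sign under scaling by library size alone.

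Calls within a genotype depended on the processing, and the cause was not tested. In WT mice, where 7 genes were called, DESeq2 gave 13, a fit of the WT groups alone 2, and the study's thresholds gave 21 (p under 0.15, taken here as unadjusted, and log2 fold change beyond 0.2 either way, stated for the genotypes in cold and applied here to each comparison). Leaving out single libraries gave 0 to 10. Calls over all genes moved as well, from 3259 to 4700 with DESeq2. The WT groups alone gave 1468 higher and 284 lower. In HIF2α AKO mice, also 7, DESeq2 gave 16, limma voom 17, a fit of these groups alone 17, the study's thresholds 25 and single libraries left out 1 to 8. Calls over all genes went from 4138 to 5336 with DESeq2 and 6140 with limma voom. A fit of these groups alone gave 2556 higher and 1747 lower. Without the 3 libraries with muscle or epithelial markers, an alternative chosen after seeing the data, 0 were called in HIF2α AKO mice. Of all genes, 1466 were higher and 368 lower in that fit. Between genotypes, the study's thresholds gave 2 genes at TN, 3 in cold and 3 for the interaction, in place of 0. Calls over all genes were not counted at the study's thresholds or with single libraries left out. Without cold WT replicate 3, the median of the 28 genes was 0.28 upon cold in WT mice (0.69 with it), 0.46 between genotypes in cold (0.08) and 0.37 for the interaction (0.01).

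With a replicate block, 12 genes were called in HIF2α AKO mice, 7 in WT mice and 20 over both genotypes, with 16 enzymes higher. The genes were not the same: in WT mice Hmgcs1, Tm7sf2 and Srebf2 were lost (adjusted p of 0.05004, 0.0558 and 0.0521) and Mvd, Msmo1 and Insig1 gained, and over both genotypes Abcg1 was lost and Dhcr7 gained. In HIF2α AKO mice Abcg1 was lost and Mvd, Sqle, Cyp51, Sc5d, Insig1 and Stard4 were gained. Of all genes, the block called 2090 higher and 1223 lower in HIF2α AKO mice, and 2018 and 543 in WT mice. Over both genotypes it called 3555 higher and 3174 lower. The labels do not say what the replicate numbers stand for, and deviations of same-numbered mice were correlated between -0.43 and 0.39. Groups of 3 mice limit the precision, as the intervals of the genotype differences show.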
